A study of Rattus norvegicus with 19 samples.

Results

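The genes described here are 10 that are widely used to mark GABA-releasing interneurons of the cerebral cortex: the neuropeptide genes Sst, Tac1, Cck and Crh, the calcium-binding protein genes Pvalb, Calb1 and Calb2, the reelin gene Reln, and Gad1 and Gad2, which encode the enzymes that make GABA. They are 10 of the 14217 genes with a probe set of their own. They were given by name, and the rule that takes their probe sets uses no measured value. Every probe set annotated to 1 of these symbols alone was taken. That gave 12 probe sets, 2 each for Reln and Gad1 and 1 for each of the other genes, of 31042 probe sets tested. The series holds 19 arrays of total RNA from adult female Fischer 344 rats. In the lesion groups a wire knife severed the dorsal columns at cervical level C3, and there were 3 arrays each at days 1, 3, 7, 14 and 49 after the cut. The remaining 4 arrays are labelled control, at time 0. All 19 are labelled motor cortex, and per the design text the deeper layers of the limb motor areas were dissected, where corticospinal neurons lie. The labels say neither whether control rats were operated on nor whether each array holds 1 animal. They name separate samples, so the p-values below measure only the spread between these samples, which may in part be technical, and the number of arrays limits the precision.

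Interneurons of the cortex make GABA with the enzymes GAD67, from Gad1, and GAD65, from Gad2, and load it into vesicles with the transporter encoded by Slc32a1. Their classes are told apart by the peptides and calcium buffers they hold: parvalbumin marks fast-spiking cells, somatostatin marks cells that contact dendrites, and cholecystokinin, calretinin or reelin mark further classes. Apart from the GABA enzymes, these genes are not limited to GABA neurons in the nervous system. Tac1, which encodes substance P, and Pvalb and Calb2 are also well known from sensory neurons of the spinal ganglia, and Cck and Calb1 from excitatory neurons of the brain.

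Most arrays were closely alike. In 17 of them the median correlation with the other arrays lay between 0.994 and 0.997. It was 0.931 in day14 replicate 2 and 0.968 in day49 replicate 2. In day14 replicate 2 the 3' end of beta-actin exceeded its 5' end by 2.24 on the log2 scale, a difference that grows when RNA is broken, against 0.877 to 1.29 in the 17 arrays. In day49 replicate 2 it was 0.845. All 19 arrays entered the planned fit. Values from the 17 arrays without these 2 are given beside it, and a fit with the beta-actin difference as a covariate called none of the 12 probe sets described here (lowest adjusted p = 0.115).

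Short stretches of start regions are shown because 3 of the peptide genes in these data, Sst, Tac1 and Vip, are textbook targets of the cAMP response element binding factor, and their values on the arrays are given further on. The RefSeq table of start regions (rat build GRCr8, 250 bases before to 50 after each annotated start) held 6 of the 10 genes: Sst, Tac1, Pvalb, Reln, Gad1 and Gad2. The full element, TGACGTCA, was searched on both strands and was found in 1 of these 6, Sst, and in 1.83% of 33469 start regions. Its core TGACG, which the full element contains, was found in 3 of the 6, in Sst, Tac1 and Pvalb, and in 21.2% of all start regions. The windows below are 30 bases long, read 5′ to 3′ on the strand of the gene, with the matched letters in capitals (in Tac1 the match lies on the opposite strand). They lie at chr11:90461537-90461566 for Sst, chr4:36645365-36645394 for Tac1 and chr1:44470371-44470400 for Vip on the plus strand, and at chr7:111666510-111666539 for Pvalb on the minus strand. In Sst the match spans bases 2 to 9 after the annotated start. A match describes these letters only.
Sst: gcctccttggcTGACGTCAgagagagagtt
Tac1: tccctaaaattgCGTCAtttcgaacccaat
Vip: ggatcaccactgTGACGtctttcgaggagc
Pvalb: gatggtcccTGACGgcgggatcctgatcaa

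Some marker genes had places on the arrays unlike those that the motor cortex label would lead one to expect. To describe this, each probe set was given its percentile among the 31042 probe sets of the same array. Probe sets differ in response, so such a place is rough and is not a level that can be ranked between genes. Among 9 measured transcription factors of the forebrain, 6 had a median place below the 25th percentile over the 19 arrays and none was above the 75th. Emx2 stood at the 0.85th, Lhx2 at the 1.65th, Neurod6 at the 12.8th and Tbr1 at the 17.5th percentile. All 4 are expressed in developing or adult cortex. Tbr1 stood no higher than the 27.1st in any array. The wider lists of brain cells were mixed. Of 13 measured markers of excitatory cortical neurons 3 were below the 25th percentile and 3 above the 75th. The low ones include Tbr1 and Neurod6, already counted above, and Neurod2 and Fezf2 are also on both lists. Among the high ones were the vesicular glutamate transporter genes Slc17a7 at the 85th and Slc17a6 at the 97th, which sensory neurons also use. Of 8 astrocyte genes 3 were below the 25th and 2 above the 75th (Slc1a2, a glutamate transporter, at the 21.1st and S100b at the 99.9th). Of 9 genes of oligodendrocytes and myelin 3 were below the 25th and 4 above the 75th (Mobp at the 16.8th and Mbp at the 99.8th).

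Genes known from sensory ganglia were bright on the same arrays. Of 17 measured markers of sensory ganglion neurons, 13 had a median place above the 75th percentile and 10 above the 90th. Among them were Prph (peripherin) at the 99.9th, Calca (the calcitonin gene-related peptide) at the 99.8th, the ATP receptor gene P2rx3 at the 97.2nd and the sodium channel genes Scn10a and Scn11a at the 92.7th and 95.8th. The lowest place of Scn10a in any array was the 90.7th. Of 5 measured genes of Schwann cells, the glia of peripheral nerves, 4 were above the 75th, with the peripheral myelin gene Pmp22 at the 99.9th. Of 17 Hox genes, which mark the hindbrain and trunk and are largely silent in the forebrain, 5 were above the 75th and 2 below the 25th. The highest was Hoxa10 at the 89.9th. By definition 25% of all probe sets lie above the 75th percentile, and the share of the Hox genes was near that. Each gene of all these lists was placed by its brightest probe set, which tends to raise its place. The lists for forebrain factors, sensory ganglia, Schwann cells and Hox genes were added after seeing the data. Which tissue the arrays hold was not established here, and the values below are given for the arrays as labelled. In a mixed tissue, fewer cells of a type and less RNA per cell cannot be told apart.

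The places of the 10 genes are given 1 by 1. Gad1 had places from the 4.34th to the 40.4th percentile by probe set 1368344_at and from the 9.67th to the 25.2nd by probe set 1370760_a_at, and Gad2 had a median place at the 26.1st. Slc32a1, which loads GABA into vesicles, stood at the 9.42nd. Crh, which encodes corticotropin-releasing hormone, stood between the 2.47th and the 9.56th. Tac1 stood at the 98.7th, Pvalb at the 97.5th, Calb2 at the 96.0th and Sst at the 93.8th, and Sst was never below the 93.1st. Reln stood at the 88.2nd by its brighter probe set, 1373957_at, and between the 44.1st and 60.8th by the other, 1369093_at. Cck and Calb1 stood near the middle of the arrays, at the 53.2nd and 48.7th percentiles. A low place does not show that a transcript was absent. In what follows the 10 genes are called by their symbols and not by a cell type.

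**Figure D1:**
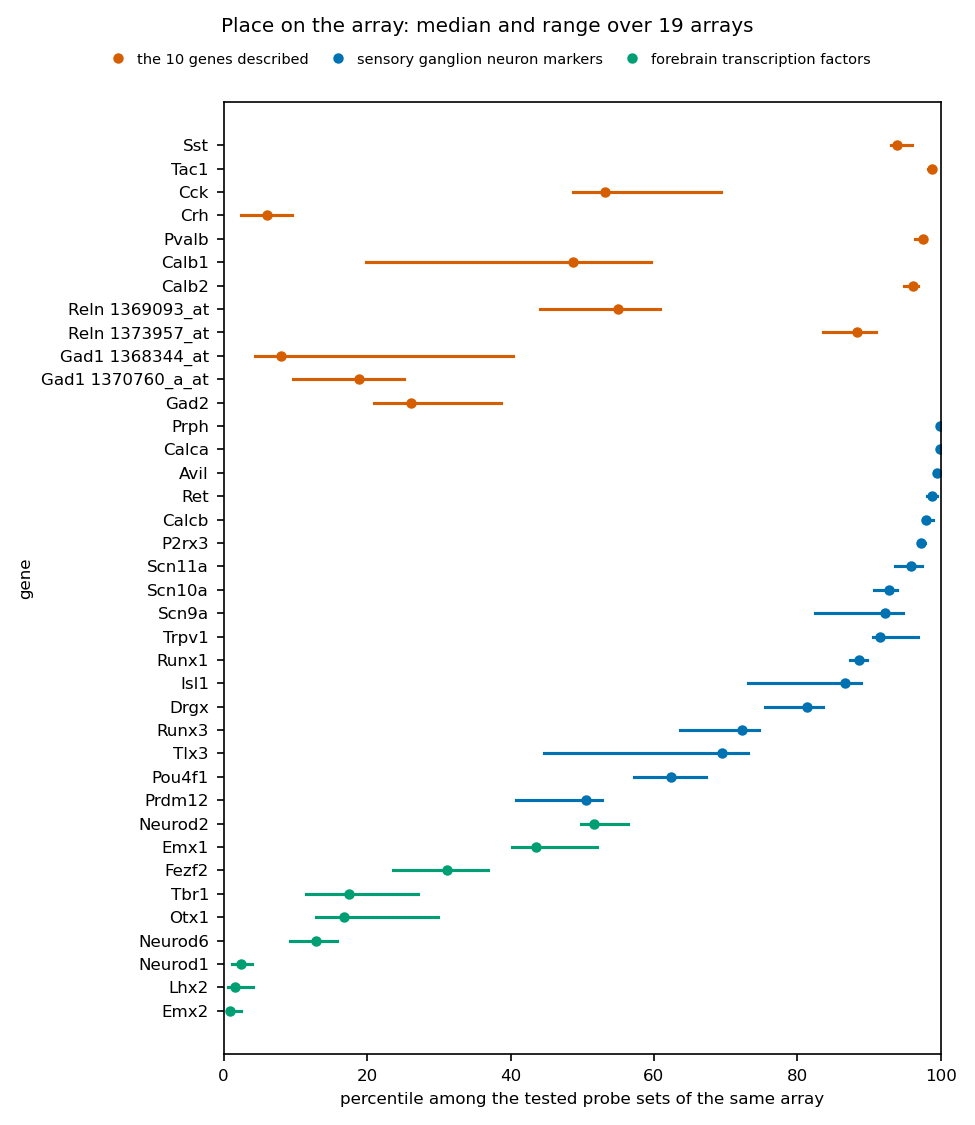
Percentile of each probe set among the 31042 tested on the same array (x axis), with the median as a point and the lowest to highest of 19 arrays as a line, for the 10 genes, 17 sensory ganglion neuron markers and 9 forebrain transcription factors (y axis). The medians of the sensory markers lie between the 50.5th and 99.9th percentiles and those of the forebrain factors between the 0.85th and 51.6th. In single arrays the sensory markers reach down to the 40.7th (Prdm12) and the forebrain factors up to the 56.3rd (Neurod2).

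The design asks which genes differ from control at each time after the cut. None of the 12 probe sets passed the threshold, a limma p under 0.05 after Benjamini-Hochberg adjustment over all probe sets, at any of the 5 times. The share of all probe sets that passed was 0.0354% at day 1 and 0% at days 3, 7, 14 and 49. The lowest adjusted p among the 12 was 1.00 at days 1, 3 and 7, 0.365 at day 14 and 0.306 at day 49. At an unadjusted p under 0.05 there were 0 of 12 at day 1, against 1.64% of all probe sets. There were 2 at day 3 against 0.908%, 1 at day 7 against 0.886%, 1 at day 14 against 13.1% and 4 at day 49 against 15.4%. With 17 arrays the counts were 2, 4, 3, 1 and 3, against 7.12%, 4.56%, 4.89%, 5.68% and 12% of all probe sets. Again none of the 12 passed the adjusted threshold, which 0.219% of all probe sets passed at day 1 and 0% at the other times. The moderated F test over the 5 times called none of the 12, against 0.0129% of all probe sets with 19 arrays and 0.135% with 17. The median difference of the 12 was 0.09 on the log2 scale at day 14 and 0.02 or less at the other times, and that of all probe sets was 0.07 at day 14 and 0.01 or less.

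Groups that did not overlap were counted next. At day 1 the lesion arrays lay all on 1 side of the control arrays in 1 of 12 probe sets, against 6.94% of all probe sets. The count was 3 at day 3 (5.47% of all), 4 at day 7 (7.05%), 2 at day 14 (9.05%) and 3 at day 49 (10.1%). The genes concerned were Cck above control at every time, Reln above it at days 3, 7 and 14, Gad2 above it at day 49, Calb1 below it at days 3, 7 and 49, and Tac1 below it at day 7. The others overlapped with control at every time.

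**Figure D2:**
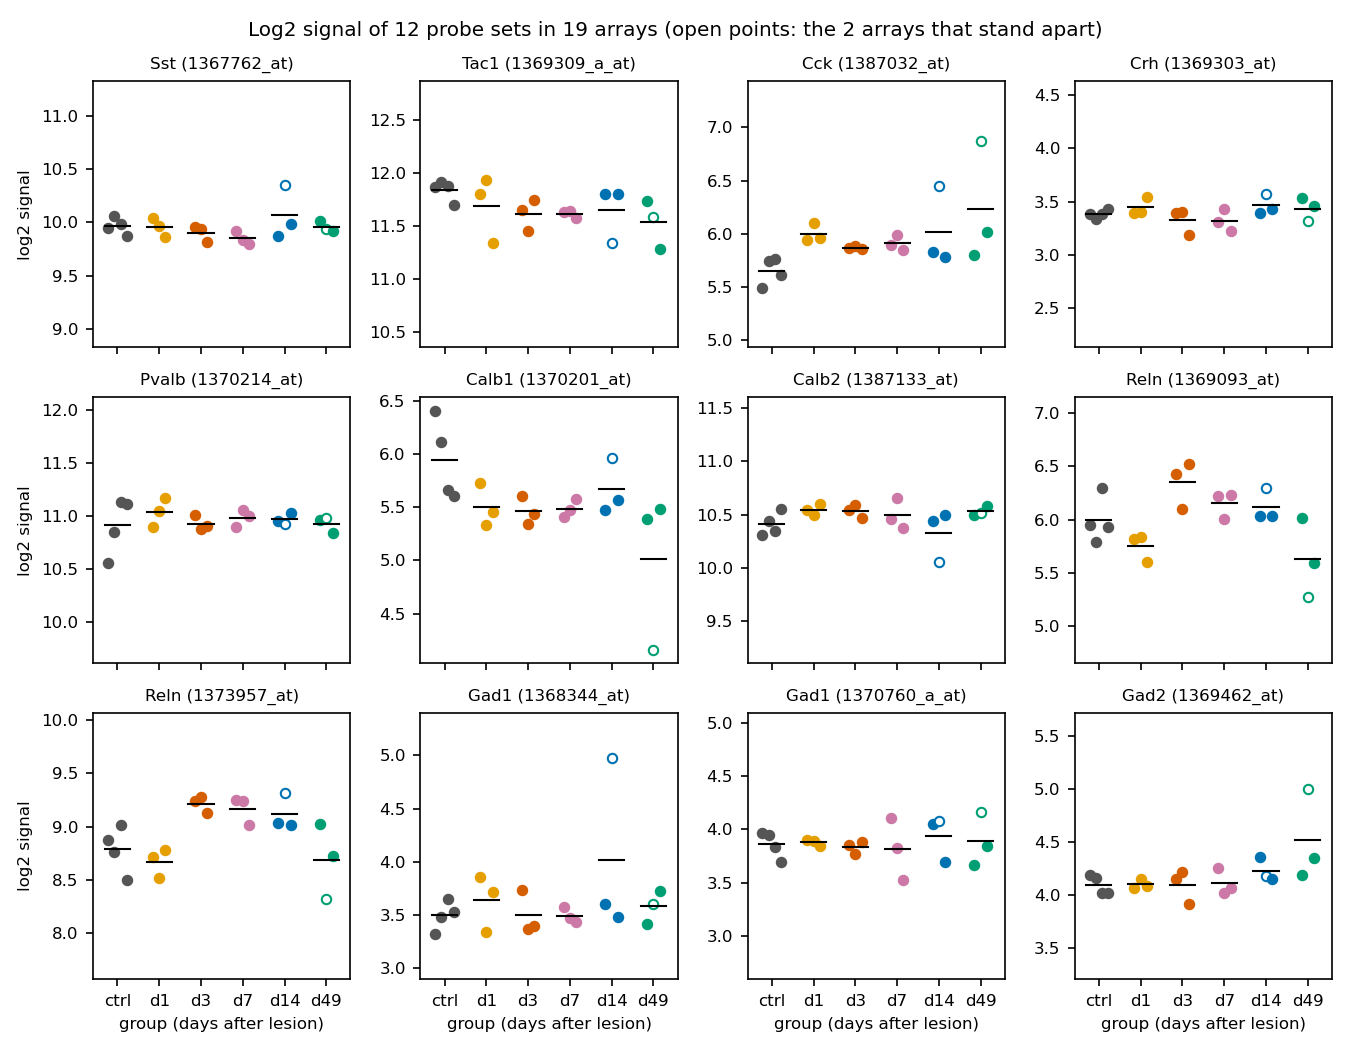
Log2 signal (y axis, a span of equal size in each panel) of the 12 probe sets in each of 19 arrays, by group in order of time (x axis), with a bar at the group mean. Open points are day14 replicate 2 and day49 replicate 2. Cck lay above all 4 control arrays in all 15 lesion arrays.

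Among the peptide genes, Cck, which encodes cholecystokinin, stood above control at every time. Its log2 signal was 5.95, 6.10 and 5.96 in the day 1 arrays, against 5.49, 5.75, 5.76 and 5.61 in the control arrays. It was 5.86, 5.88 and 5.85 at day 3, and 5.89, 5.99 and 5.85 at day 7. It was 5.83, 6.45 and 5.78 at day 14, and 5.80, 6.87 and 6.02 at day 49. The 6.45 and 6.87 are the arrays that stand apart, and every lesion array was above every control array. Such a pattern, all 15 lesion arrays above all 4 controls, was shown by 14 of 31042 probe sets, 0.0451%. It was noticed in these values and was not tested as such. The controls are the same 4 arrays at each time, so the times are not independent of each other.

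The size of the Cck difference was small. It was 0.35 (SE 0.20) at day 1, 0.21 at day 3, 0.26 at day 7, 0.37 at day 14 and 0.58 at day 49 in the fit of 19 arrays, with adjusted p of 1.00 at days 1 to 7, 0.375 and 0.306. With 17 arrays the standard error at day 1 was 0.073 and the adjusted p 0.0804, and the differences at days 14 and 49 were 0.15 and 0.26. The mean of the 5 times minus control, a contrast added after these values were seen, was 0.35 with 19 arrays (1.28-fold, adjusted p = 0.966). It was 0.25 with 17 arrays (1.19-fold, 95% interval 0.13 to 0.36, adjusted p = 0.550). That contrast called 0% of all probe sets in both fits. Limma's array weights gave 0.0368 and 0.067 to the arrays that stand apart. They put Cck past the threshold at day 1 (0.35, adjusted p = 0.0416), where they called 0.564% of all probe sets. They also put it past the threshold at day 49 (0.38, adjusted p = 0.00303), where they called 21%. The day 49 weights were 0.385, 0.067 and 3.70 for replicates 1, 2 and 3. The weighted day 49 mean thus rests mostly on replicate 3.

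Tac1, the gene of substance P and neurokinin A, had log2 signals of 11.63, 11.64 and 11.58 at day 7, against 11.87, 11.91, 11.88 and 11.70 in control arrays. All 3 day 7 arrays were below all 4 controls. At day 49 Tac1 had 11.74, 11.58 and 11.28, with 1 array inside the control range. Its differences from control were -0.15, -0.22, -0.22, -0.19 and -0.30 from day 1 to day 49, with standard errors of 0.15 and adjusted p of 0.328 or more. At day 14 the difference was -0.04 with 17 arrays, since day14 replicate 2 was the low array there, at 11.34. With array weights the day 49 difference was -0.52 with adjusted p = 0.00192, where these weights called 21% of all probe sets. The most heavily weighted array, day49 replicate 3, was the lowest of the group.

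Sst and Crh kept close to control. Sst, which encodes the inhibitory peptide somatostatin, averaged 9.96 ± 0.09 (SD, n = 3) at day 1 and 9.85 ± 0.06 at day 7, against 9.97 ± 0.08 (SD, n = 4) in control arrays. Its differences lay between -0.12 and 0.10, and their 95% intervals between -0.32 and 0.30. The array farthest from the others was day14 replicate 2, at 10.35. Crh lay between 3.19 and 3.57 in all 19 arrays, with 95% intervals of its differences between -0.23 and 0.25. Its place was between the 2.47th and the 9.56th percentile. At so low a signal a probe set may respond little to its transcript, which was not tested.

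Among the calcium-binding proteins, Calb1, which encodes calbindin, was below the control mean at all times. Its log2 signals were 5.60, 5.34 and 5.44 at day 3 and 5.41, 5.47 and 5.58 at day 7, against 6.41, 6.11, 5.66 and 5.60 in control arrays. The controls themselves spread widely, with an SD of 0.38, and 2 of them lay close to the lesion arrays. At day 1 Calb1 had 5.73, 5.33 and 5.45, at day 14 5.47, 5.96 and 5.57, and at day 49 5.39, 4.16 and 5.48.

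The differences of Calb1 from control were -0.44, -0.49, -0.46, -0.28 and -0.94 from day 1 to day 49, with a standard error of 0.26 and adjusted p of 0.306 or more. The day 49 value rests on day49 replicate 2, and with 17 arrays it was -0.51 (95% interval -0.88 to -0.14, adjusted p = 0.258). The other times gave -0.44, -0.49, -0.46 and -0.43 with 17 arrays. The mean of the 5 times minus control was -0.52 with 19 arrays and -0.47 with 17 (0.724-fold, adjusted p = 0.553). With array weights, which called 21% of all probe sets at day 49, Calb1 passed there, at -0.63 with adjusted p = 0.00699. That weighted value rests mostly on day49 replicate 3, which had a weight of 3.70. The 8 marker genes of meninges and choroid plexus ran with Calb1 over 17 arrays (Pearson r = 0.59 with their mean, 0.27 over 19). The mean of those 8 genes lay between 8.57 and 8.87 at day 1, 8.57 and 8.75 at day 3, 8.67 and 8.80 at day 7, 8.74 and 9.10 at day 14 and 8.47 and 8.98 at day 49, against 8.75 to 9.05 in control arrays. By their mean over all 19 arrays 6 of the 8 were above the 75th percentile and none was below the 25th. Their part in the Calb1 values was not tested.

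Pvalb and Calb2 did not differ beyond their spread at any time. Pvalb, which encodes parvalbumin, lay between 10.84 and 11.17 in all 15 lesion arrays, against 10.56, 10.85, 11.13 and 11.12 in control arrays, which spread more widely than any lesion group. The 95% intervals of its differences ran from -0.23 to 0.37. Calb2, which encodes calretinin, averaged 10.55 ± 0.05 at day 1 and 10.53 ± 0.06 at day 3 (SD, n = 3 each), against 10.41 ± 0.11 (SD, n = 4) in control arrays. Its intervals ran from -0.30 to 0.35, and the lowest array, at 10.05, was day14 replicate 2.

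Reln, which encodes a secreted protein that guides neuron placement in development, had the smallest F test p of the 12 probe sets, by both of its own (adjusted p = 0.724). The brighter probe set, 1373957_at, had 8.71, 8.52 and 8.78 at day 1, against 8.88, 8.76, 9.01 and 8.50 in control arrays. It had 9.24, 9.28 and 9.13 at day 3, 9.25, 9.24 and 9.01 at day 7 and 9.04, 9.32 and 9.01 at day 14. All arrays of days 3, 7 and 14 lay above all controls, barely so at days 7 and 14, while day 1 overlapped with control. At day 49 it had 9.02, 8.32 and 8.73, on both sides of the controls.

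The differences of 1373957_at from control were -0.12, 0.43, 0.38, 0.33 and -0.10 from day 1 to day 49 (SE 0.15), with adjusted p of 0.365 or more. With 17 arrays they were -0.12, 0.43, 0.38, 0.24 and 0.09, and the adjusted p at day 3 was 0.778. The dimmer probe set gave -0.24, 0.36, 0.16, 0.13 and -0.37, with 0.04 at day 14 and -0.19 at day 49 over 17 arrays. It had 6.42, 6.10 and 6.53 at day 3, against 5.95, 5.79, 6.30 and 5.93 in control arrays, which overlap.

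**Figure D3:**
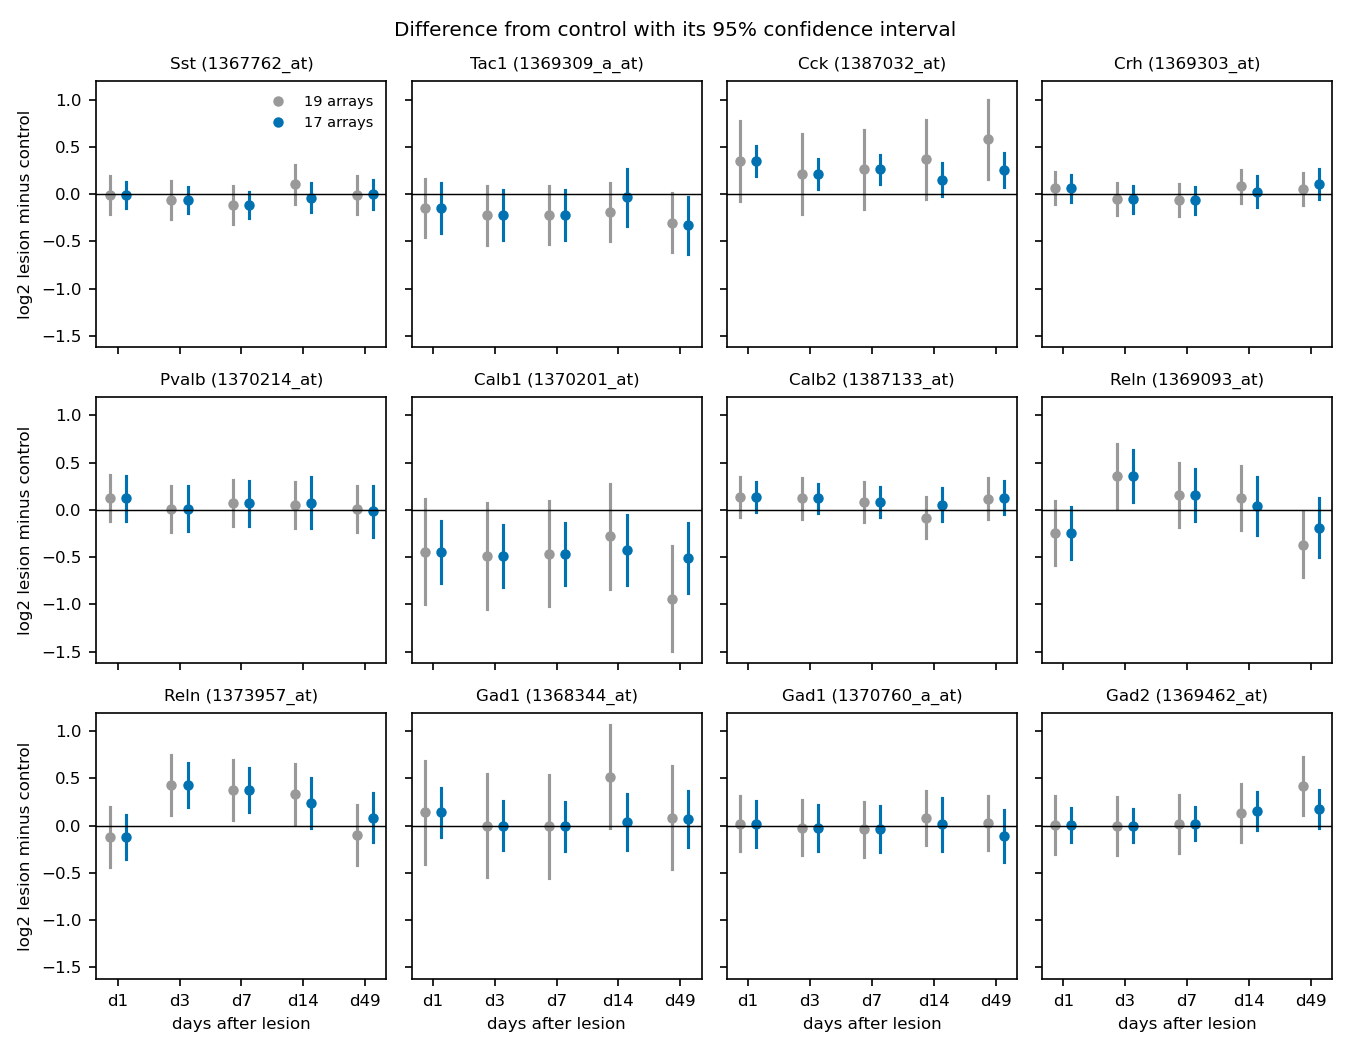
Log2 difference of each lesion group from control (y axis) by day after the lesion (x axis), with its 95% confidence interval, for the 12 probe sets in the fit of 19 arrays (grey) and of 17 arrays (blue). The intervals are those of single probe sets and are not adjusted for the number tested. For Cck the points lie above 0 at all 5 times, between 0.21 and 0.58 with 19 arrays.

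Between neighbouring times none of the 12 probe sets passed the threshold in the fit of 19 arrays. The share of all probe sets that passed was 0.0258% for day 3 against day 1 and 0% for the other 3 steps. Day 3 minus day 1 was 0.55 for Reln by 1373957_at and 0.60 by 1369093_at, a 1.46-fold and a 1.52-fold difference, and by both probe sets all day 3 arrays were above all day 1 arrays. Of all probe sets 15.9% did not overlap between these groups. The adjusted p of both was 1.00, and with 17 arrays it was 0.0881 and 0.118. Array weights put both past the threshold (adjusted p = 0.00217 and 0.00418), where 1.58% of all probe sets passed. Day 49 minus day 14 was -0.43 and -0.50 for the 2 Reln probe sets with adjusted p = 0.343, and -0.15 and -0.23 with 17 arrays.

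The genes of GABA synthesis gave no difference that held with and without the arrays that stand apart. Gad2 had 4.19, 5.002 and 4.35 at day 49, against 4.19, 4.16, 4.02 and 4.03 in control arrays. Its day 49 difference was 0.42 (95% interval 0.11 to 0.72, adjusted p = 0.306), and 0.17 (-0.03 to 0.38) without day49 replicate 2, the highest of the 3. Gad1 by 1368344_at had 3.60, 4.97 and 3.48 at day 14, against 3.32, 3.48, 3.65 and 3.53 in control arrays, so that its difference of 0.52 was 0.04 with 17 arrays. By 1370760_a_at the Gad1 differences lay between -0.04 and 0.08, with intervals between -0.33 and 0.37. At these low signals a probe set may respond little to its transcript, and its range was not tested.

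The 10 genes did not move as 1 group over the arrays. Correlations are given over the 17 arrays as descriptions. These arrays were normalized together and share groups. Calb1 and Cck ran against each other (r = -0.70, and -0.43 within groups), as did Calb1 and Pvalb (r = -0.60, and -0.79 within groups, -0.41 over 19 arrays). The control with the most Calb1, at 6.41, had the least Pvalb, at 10.56, and the 2 controls with 5.66 and 5.60 for Calb1 had 11.13 and 11.12 for Pvalb. The 2 Reln probe sets ran together (r = 0.68, and 0.23 within groups). Over the 17 arrays Sst, Gad1 and Gad2 had no correlation beyond 0.5 in size with any other of the 10 genes, though within groups Gad2 and Gad1 by 1370760_a_at had 0.57. Over 19 arrays r was 0.77 for Sst and Gad1 by 1368344_at, -0.65 for Sst and Calb2, and 0.70 for Gad2 and Cck, against 0.16, -0.13 and 0.10 over 17.

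**Figure D4:**
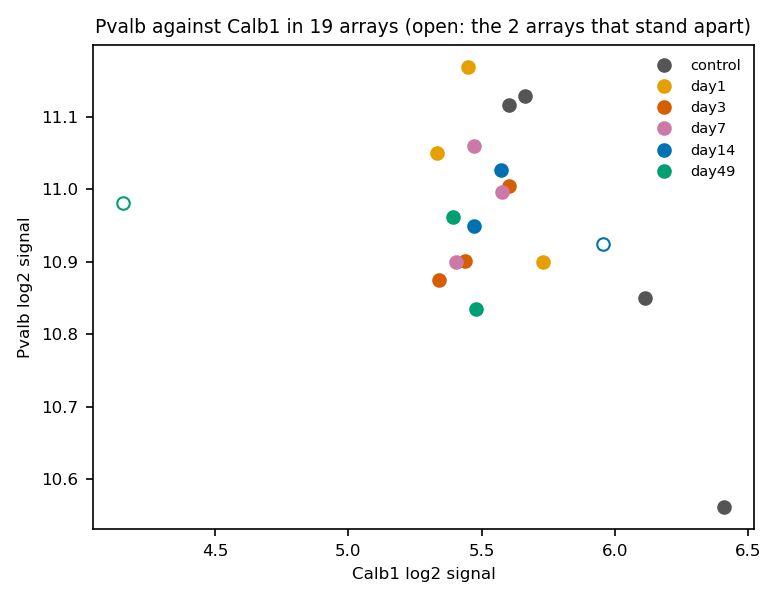
Log2 signal of Pvalb (y axis) against that of Calb1 (x axis), 1 point an array, coloured by group. Open points are day14 replicate 2 and day49 replicate 2. The 4 control arrays span 5.60 to 6.41 for Calb1 and 10.56 to 11.13 for Pvalb and the 2 with the most Calb1 had the least Pvalb.

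The genes whose signals were most alike over the 17 arrays were named by the highest Pearson r, 1 probe set a gene. For Tac1 they were Il7r, Syt5 (a synaptotagmin of vesicle release) and Neto2, with r of 0.95, 0.95 and 0.91, and over 19 arrays 0.66, 0.92 and 0.81. For Reln they were Gabrb2 (a GABA receptor subunit), Ptprd and Ptprz1, with r of 0.91, 0.90 and 0.90, and over 19 arrays 0.73, 0.83 and 0.83. For Pvalb they were Arv1, Hagh and Fxyd7 (a regulator of the sodium pump), with 0.94, 0.91 and 0.91, and over 19 arrays 0.63, 0.29 and 0.13. For Cck they were Psmg3, Lsm7 and Tmem35b, with 0.82, 0.81 and 0.80, and over 19 arrays -0.19, 0.63 and 0.77. For Calb1 they were Sh3gl3, Slc5a7 (the choline transporter) and Epcip, with 0.84, 0.82 and 0.81, and over 19 arrays 0.39, 0.69 and 0.34. For Sst they were Rgs10, Asl and Lamp5, with 0.79, 0.78 and 0.75, and over 19 arrays 0.89, 0.49 and 0.71. The best match of Calb2 was Alkbh3, of Gad1 Rfx8, of Gad2 Epor and of Crh Frem2, with r between 0.77 and 0.85. Over 19 arrays these 4 had -0.06, 0.54, 0.83 and -0.02. Several of these likenesses were thus lost once the 2 arrays that stand apart were included. These are the highest of 14217 genes less the 10, so they are high by selection.

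The mean of the 17 sensory ganglion neuron markers correlated with Tac1 at r = 0.56 and with Cck at r = -0.51 over 17 arrays (0.58 and -0.76 over 19). That mean lay between 9.53 and 9.67 at day 1 and 9.41 and 9.71 at day 49, against 9.63 to 9.74 in control arrays. The difference from control was below 0 for 15, 6, 13, 9 and 15 of the 17 markers from day 1 to day 49, with median differences of -0.06, 0.02, -0.04, -0.01 and -0.12. With 17 arrays it was below 0 for 12 at day 14 and 14 at day 49, with medians of -0.03 and -0.07. None of them passed the threshold. The part of these cells in the Tac1 and Cck values was not tested.

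Vip and Npy, peptide genes also used as interneuron markers, gave larger differences than any of the 10. Vip, which encodes vasoactive intestinal peptide, had 7.14, 6.56 and 6.41 at day 14 and 4.08, 5.49 and 7.41 at day 7, against 3.97, 3.82, 3.77 and 4.05 in control arrays. Its difference was 2.81 at day 14 (adjusted p = 0.301) and 1.76 at day 7 (adjusted p = 1.00). Npy differed by 1.69 at day 14 (adjusted p = 0.365) and by 1.22 at day 7. It had 8.53, 7.81 and 7.76 at day 14. At day 7 it had 6.65, 7.01 and 9.03, against 6.53, 6.58, 6.23 and 6.03 in control arrays. The day 7 difference of Npy thus rests mostly on day7 replicate 3. Neither gene passed the threshold. In both genes all arrays of both times lay above all controls, barely so in day7 replicate 1. Of all probe sets 7.05% did not overlap with control at day 7 and 9.05% at day 14.

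Related gene groups were counted in the same way, each gene by its brightest probe set, and none of their measured genes passed at any time or by the F test. These were 7 of 8 genes of GABA transport and breakdown, 10 of 16 interneuron transcription factors, 24 of 28 other class markers, 12 of 15 receptors of these peptides and of reelin, and 9 of 10 genes of peptide processing. Among the transport genes Abat, which breaks GABA down, differed by 0.20 at day 1 and Slc38a1, a glutamine transporter, by 0.28 at day 14. Among the transcription factors the 2 of smallest F test p were Dlx5 and Maf, with -0.06 and -0.15 at day 1. Of the receptor genes all 12 were above control at day 14, with a median of 0.17, against 0.06 for all genes. With 17 arrays 9 of 12 were, with a median of 0.08. Of these, Vldlr, a reelin receptor, differed by 0.24 at day 1 and 0.30 at day 14, and Cckbr, a cholecystokinin receptor, by -0.16 and 0.17. Of the peptide processing genes, which were bright, 9 of 9 were below control at day 49, with a median of -0.08, against -0.03 for all genes, and 8 of 9 with 17 arrays. Scg2, a secretory granule protein, differed by -0.15, -0.13 and -0.13 at days 1, 3 and 7, with all lesion arrays below all controls at each, and Pam, which amidates peptides, by -0.18 at day 1.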

How the data were processed

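RNA of 19 samples was measured on Affymetrix rat arrays, per the labels' protocols, from biotin-labelled cRNA. The authors deposited log2 signals, 1 per probe set and array, made with RMA per the submitters' processing notes. The sources used here do not give its version, scan dates or the build behind the probes. RMA gives all arrays 1 distribution of single-probe signals, before these are combined into probe sets. That can hide any change common to most transcripts.

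The table held 31099 probe sets. The 57 array controls were left out of the tests, leaving 31042, of which 20826 carried 1 symbol (14217 genes) in the platform annotation, 436 several and 9780 none here. Symbols were updated by gene ID for 20758.

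Each probe set was fitted with limma 3.58.1 in R 4.3.3, 6 group means over 19 arrays, eBayes defaults, two-sided, adjusted by Benjamini-Hochberg over 31042, threshold 0.05. Degrees of freedom were 13 residual and 2.76 prior. Differences are later minus earlier or lesion minus control, on the log2 scale. Percentiles were taken within each array. The fit was tested on simulated data. Start regions came from RefSeq, and plots from matplotlib 3.10.9 in Python 3.11.15.

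The 10 genes and the gene lists were chosen with earlier results of these data known, and 4 lists and the mean over times were added after seeing the data. From each list the 2 genes of smallest F test p were named, with Vip and Npy whatever they showed, and other list genes in the tissue check were picked after their values were seen. Alternatives were: centring each array, quantile normalization again, a filter on dim probe sets, trend and robust eBayes, the replicate number as a block, array weights, the brightest probe set of each gene alone, only the groups compared, the 17 arrays, covariates for myelin, striatum and RNA quality, and each array left out in turn. Groups share replicate numbers, and no label ties a number to a day, litter or batch. The correlation of deviations from group means was 0.166, 0.117 and 0.269 in like-numbered control and day 1 arrays. At the later times it ran from -0.146 (day14 replicate 3) to 0.420 (day49 replicate 2). At each of those times it was under 0.1 in at least 1 pair.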

Additional observations from a re-analysis of the deposited data

How the results depend on the processing

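In the planned fit no probe set of the 10 genes was called at any time, by the F test or between neighbouring times. Array weights changed that: 1 was called at day 1 (Cck), 3 at day 49 (Tac1, Calb1 and Cck), 5 by the F test (both of Reln, Tac1, Calb1 and Cck) and 4 between neighbouring times (both of Reln for day 3 against day 1, and Reln and Tac1 for day 49 against day 14). These weights called 0.564% of all probe sets at day 1, 21% at day 49 and 20.7% by the F test. They called 1.58% for day 3 against day 1 and 9.62% for day 49 against day 14. Under them the day 49 mean rests mostly on day49 replicate 3, which had a weight of 3.70. The counts with each array left out in turn ranged from 0 to 4 at day 49 and stayed at 0 elsewhere. The 4 came without day49 replicate 1 (lowest adjusted p = 0.0331), where 7.84% of all probe sets passed. They were Reln by 1369093_at at -0.56, Gad2 at 0.58, Cck at 0.79, and Calb1, which lay below control. The day 49 group then held only day49 replicate 2, which stands apart, and replicate 3. By 1373957_at the day 49 difference of Reln lay between -0.27 and 0.09 over all settings. The replicate block called 0 of the 12 at every time, with a lowest adjusted p of 0.415, and 0.00966% of all probe sets at day 1. The other settings run, with the 17 arrays and the covariates for myelin, striatum and RNA quality among them, called 0. Over all settings 1020 of 1105 differences of single probe sets from control kept their sign and 85 changed it. All those of Cck, Calb1 and Reln by 1369093_at kept their sign. Cck at day 1 lay between 0.30 and 0.39 and Calb1 at day 3 between -0.60 and -0.33. For Cck all lesion arrays lay above all controls, so leaving arrays out could not change the sign. The cause of the changes was not tested. The filter on dim probe sets leaves out Gad1, Gad2, Crh and Calb1, and gives no value for them.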

Other observations

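Other cell type lists were counted on the same arrays, and none of their genes passed the threshold in the fit of 19 arrays. Among 8 astrocyte genes Gfap differed by 0.64 at day 1 and 0.70 at day 14, with all lesion arrays above all controls at both times, and its F test passed with 17 arrays (adjusted p = 0.0401). Among 8 genes of meninges and choroid plexus Lum, a collagen-binding matrix protein, differed by -0.93 at day 1, and passed with 17 arrays (adjusted p = 0.041). Among 8 microglia genes C1qc, a complement subunit, differed by 0.62 at day 1 and by -0.37 at day 14. Among 9 genes of oligodendrocytes and myelin Cldn11 differed by 0.44 at day 1 and by -0.59 at day 3. Of the 9 forebrain transcription factors all were above control at day 49, with a median of 0.17, against -0.03 for all genes. Without the 2 arrays that stand apart 5 of 9 were, with a median of 0.02. In all 19 arrays together none had a median place above the 51.6th percentile. The lists for excitatory cortical neurons (13 genes measured), striatal projection neurons (10) and endothelium and pericytes (7) had median differences between -0.10 and 0.14 over the 5 times.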
